A study of Homo sapiens with 6 samples.

Results

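The Aurora kinases and the genes of the chromosomal passenger complex were examined as a set of 10 genes, chosen by symbol from the 63129 genes listed in the expression table. The set holds the kinases AURKA and AURKB, the passenger subunits INCENP, CDCA8 (borealin) and BIRC5 (survivin), the Aurora A activators TPX2 and BORA, the histone kinase haspin (listed under its older symbol GSG2), and the mitotic kinases NEK2 and NEK6. All 10 symbols were found once, each with 1 value per library. The libraries came from ERRAS cells, which are IMR90 human fibroblasts carrying a retroviral construct in which H-RasV12, an always-active oncogenic Ras, is joined to the hormone-binding part of the estrogen receptor, so that tamoxifen switches it on. Control mitotic cells (3 libraries) carried the same construct and were left uninduced, and Ras-induced mitotic cells (3 libraries) had been induced for 4 days. The labels give the inducing dose as 100 nM tamoxifen, while the study's methods give the same figure in ng/ml of 4-hydroxytamoxifen. Both groups were held in mitosis by DME at 1 μM, which blocks the spindle motor Eg5, and the detached cells were collected. Every value therefore describes poly(A) RNA of cultures that the study scored as mostly mitotic, and RNA of other cells in them cannot be told apart.

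Aurora A works at centrosomes and on spindle microtubules, where TPX2 binds and activates it, and BORA helps it to activate the kinase PLK1 at entry into mitosis. Aurora B is the enzyme of the chromosomal passenger complex, in which INCENP is the scaffold and activator while borealin and survivin bring the complex to the inner centromere. Haspin writes the histone H3 mark to which survivin binds. NEK2 separates the centrosomes, and NEK6 acts with NEK7 and NEK9 on the spindle. Most of these genes are transcribed in G2 and mitosis, through promoters that often hold a CHR element (cell cycle genes homology region, TTTGAA) and CCAAT boxes.

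Promoter sequences are shown because genes transcribed in G2 and mitosis often share these elements. RefSeq promoters (250 bases before to 50 bases after the start, gene strand) were found for 6 members, namely AURKB, INCENP, CDCA8, BORA, NEK2 and NEK6, and each matched GRCh37 once. No entry was found for AURKA, BIRC5, TPX2 and GSG2. TTTGAA, searched on both strands, stood in 3 of the 6 promoters and in 15.2% of all 35116 promoters of the same length. Capitals mark TTTGAA in these stretches, which begin 12 bases before it.
INCENP chr11:61891461-61891482 (+): tgagccttcagtTTTGAAaatc
CDCA8 chr1:38158153-38158182 (+): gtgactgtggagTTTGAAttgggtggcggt
BORA chr13:73301872-73301901 (+): aggctgcgttgaTTTGAAtttggagccacg

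The element began 10 bases before the RefSeq start in INCENP, 23 in CDCA8 and 177 in BORA. The gene positions given further on come from the GENCODE annotation, whose starts differ, so that by them the element lies just inside INCENP and CDCA8 and across the start of BORA. CCAAT, searched on both strands, stood in all 6 promoters and in 34.6% of all promoters, and one of the CDCA8 matches shares bases with its TTTGAA. For the 2 members with a promoter entry but no TTTGAA whose CCAAT lies nearest the start, the capitals mark CCAAT.
NEK2 chr1:211848981-211849009 (-): gcccaccgcctgCCAATagactgcgagat
NEK6 chr9:127019841-127019869 (+): cttgttactgtgCCAATttcagtatgact

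The shares are given as a description of these windows only.

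Expression is given as the deposited FPKM, in which the fragments of a gene are divided by its transcript length and by the fragments mapped in that library. The files hold no read counts, so absolute depth is unknown. Steps between low values put the relative depth of the libraries between 0.850 and 1.17 times that of the first control library. Of the listed genes, 13993 had a mean of at least 1 FPKM and were tested with limma on log2(FPKM + 1), and a gene is called altered where p, adjusted over them by Benjamini-Hochberg, was 0.05 or less. Log2 fold changes throughout are of FPKM + 1. For genes at a few FPKM or less they are therefore smaller than the change in FPKM itself. All 8 fibroblast markers reached 1 FPKM, whereas none of the 4 endothelial and 4 haematopoietic markers did. Among 4 epithelial markers the keratins KRT5 and KRT14 had control means of 11.7 and 10.2 FPKM, EPCAM had 1.24 FPKM, and CDH1 had 0.132 FPKM. In Ras-induced cells EPCAM had 0.288 FPKM, below every control library. Of the fibroblast markers COL1A2 and THY1 were lower, with log2 fold changes of -1.30 (adjusted p = 0.0101 from limma) and -1.19 (adjusted p = 0.00279 from limma). COL1A1 (-1.43) and COL3A1 (-1.25) were not altered (adjusted p = 0.0501 and 0.0553 from limma), nor were VIM (0.06), FN1 (0.02), S100A4 (0.19) and PDGFRB (-0.04). The marker sum was 5446 to 6333 FPKM in control and 4019 to 5370 FPKM in Ras-induced libraries. Their part in the members' values was not tested.

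All 10 members passed the filter on low values. After Ras induction 3 of them were lower (TPX2, BIRC5 and CDCA8), none was higher and 7 were not altered, where 5.67% of all tested genes were called lower and 11.0% higher. The fold change of every member was under 0, as was that of 5222 of all 13993 tested genes, with NEK6 near 0 and a median log2 fold change of -0.13, against 0.10 over all tested genes. In 5 members (the altered ones, AURKA and NEK2) each Ras-induced value lay under each control value, which was so for 12.8% of all tested genes. The log2 fold changes of the 10 members lay between -0.46 and -0.01. A gene that was not altered is not thereby shown to be unchanged. In a culture, fewer cells carrying an mRNA and less of it per cell cannot be told apart.

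**Figure D1:**
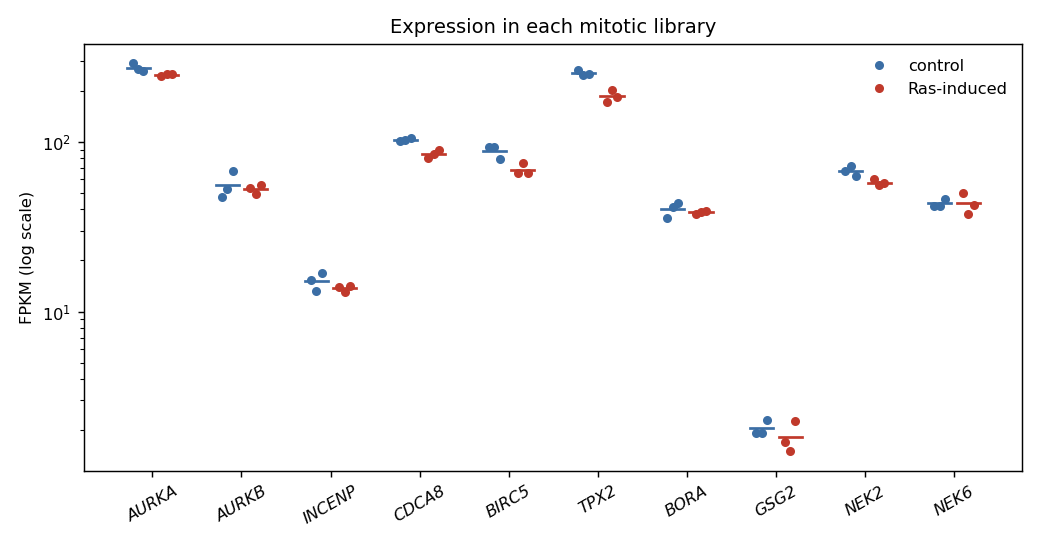
FPKM (log scale) of the 10 genes in each library, with 3 control points (blue) and 3 Ras-induced points (red) per gene and a line at each group mean. The groups separate for AURKA, CDCA8, BIRC5, TPX2 and NEK2 and overlap for the other members, and GSG2 lies near 2 FPKM, far under the rest.

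Aurora A mRNA was the most abundant of the set. AURKA (ENSG00000087586, chromosome 20 of GRCh37 from 54944445 to 54967393) measured 289.5, 270.0 and 259 FPKM in control libraries and 245, 250.2 and 249 FPKM in Ras-induced libraries. Every Ras-induced library was under every control library, and the means of 273 ± 15.3 and 248 ± 2.95 FPKM (SD, n = 3) differed by -9.16%. This did not pass the test, with a log2 fold change of -0.14 (95% interval -0.31 to 0.03, adjusted p = 0.232 from limma). With libraries scaled to 1 upper quartile it did (log2 fold change -0.25, adjusted p = 0.0477 from limma). The pseudogene AURKAPS1, a possible recipient of its reads, was at or under 0.208 FPKM in every library.

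AURKB (ENSG00000178999, chromosome 17 from 8108051 to 8113918), the passenger kinase, measured 47.3, 52.9 and 67.1 FPKM in control and 53.6, 49.5 and 56.0 FPKM in Ras-induced cells. The Ras-induced values lay inside the control range. Its log2 fold change was -0.06 (95% interval -0.38 to 0.27, adjusted p = 0.801 from limma), an interval wide enough to hold the fall measured for CDCA8 as well as no change. Without the third control library, the highest of the 6, the fold change was 0.08. AURKC, the third Aurora kinase and best known from germ cells, was under the filter and showed 0.503, 0.518 and 0.561 FPKM in control and 0.845, 0.953 and 0.761 FPKM in Ras-induced libraries. These groups did not overlap and the Ras-induced values were the higher ones, but in the fit without a filter AURKC was not altered (log2 fold change 0.28, adjusted p = 0.163 from limma).

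Of the passenger subunits, BIRC5 and CDCA8 were lower and INCENP was not altered, and the subunits were not tested against each other. BIRC5 (ENSG00000089685, chromosome 17 from 76210267 to 76221717), survivin, measured 92.9, 93.4 and 79.7 FPKM in control and 65.1, 74.6 and 65.9 FPKM in Ras-induced libraries. All Ras-induced values were lower, and the mean fell by 22.7%, from 88.7 ± 7.81 to 68.5 ± 5.27 FPKM (SD, n = 3). On the log2 scale this was -0.37 with a standard error of 0.097, at an adjusted p = 0.0483 from limma. Leaving out any library other than the third control ended the call, with adjusted p from 0.0554 to 0.144, and so did testing with no filter on low values (adjusted p = 0.0914) or with no trend in the variance (0.0736).

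CDCA8 (ENSG00000134690, chromosome 1 from 38158153 to 38175391), borealin, had tight replicates at 101, 103 and 105 FPKM in control and 80.5, 84.7 and 89.1 FPKM in Ras-induced cells. It fell by 17.6% in the mean, from 103 ± 2.12 to 84.8 ± 4.31 FPKM (SD, n = 3), which was -0.28 with a standard error of 0.071 on the log2 scale, at an adjusted p = 0.0438 from limma. Leaving out any library ended this call, with adjusted p from 0.0617 to 0.103, and so did testing with no filter (adjusted p = 0.0558) or with no trend (0.0767).

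INCENP (ENSG00000149503, chromosome 11 from 61891470 to 61920641), the scaffold of the complex, was the scarcest subunit mRNA, at 15.4, 13.2 and 16.8 FPKM in control and 13.9, 13.1 and 14.2 FPKM in Ras-induced libraries. The groups overlapped, and the log2 fold change of -0.13 (95% interval -0.38 to 0.13) was not significant (adjusted p = 0.430 from limma). That interval also holds the values measured for CDCA8 and BIRC5, and leaving out 1 library moved the fold change between -0.22 and -0.0561.

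Of the Aurora A activators, TPX2 changed the most of all members. TPX2 (ENSG00000088325, chromosome 20 from 30327074 to 30389608) measured 266, 247 and 250.3 FPKM in control and 171, 202 and 184 FPKM in Ras-induced libraries. The lowest control value was above the highest Ras-induced value by a wide margin, and the mean fell by 27.1%, from 254 ± 9.78 to 186 ± 15.1 FPKM (SD, n = 3). This was -0.46 with a standard error of 0.084 on the log2 scale, at an adjusted p = 0.0163 from limma. The call held without the third control library (adjusted p = 0.0367) and without the second Ras-induced library (0.0236), and was lost without the first control (0.0652), the second control (0.0585), the first Ras-induced (0.0509) or the third Ras-induced library (0.0685). In each of these fits the fold change stayed between -0.52 and -0.40.

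BORA (ENSG00000136122, chromosome 13 from 73301887 to 73330336) measured 35.6, 41.1 and 43.8 FPKM in control and 37.6, 38.5 and 39.2 FPKM in Ras-induced cells. The Ras-induced libraries lay within the control range (log2 fold change -0.06, 95% interval -0.28 to 0.17, adjusted p = 0.703 from limma). Its 3′ end overlaps DIS3 on the other strand, at control and Ras-induced means of 22.5 and 24.6 FPKM, and the library kit does not mark strand.

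Haspin mRNA was low. GSG2 (ENSG00000177602, chromosome 17 from 3627197 to 3629993) measured 1.93, 1.93 and 2.32 FPKM in control and 1.70, 1.501 and 2.26 FPKM in Ras-induced libraries, with overlapping groups (log2 fold change -0.12, 95% interval -0.53 to 0.28, adjusted p = 0.653 from limma). Leaving out 1 library moved the fold change between -0.23 and -0.0389. Only 11.2% of tested genes had a mean at or under its own. The gene lies within ITGAE, which is transcribed from the other strand at control and Ras-induced means of 50.0 and 55.5 FPKM, so reads of the pair cannot be told apart without strand.

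NEK2 (ENSG00000117650, chromosome 1 from 211831999 to 211848972) measured 67.4, 72.0 and 63.0 FPKM in control and 60.0, 55.4 and 57.0 FPKM in Ras-induced cells. The groups did not overlap, yet the log2 fold change of -0.23 (95% interval -0.42 to -0.04) did not pass adjustment over all genes (adjusted p = 0.101 from limma). It did after quantile normalization (adjusted p = 0.0379) and after upper-quartile scaling (adjusted p = 0.0297). NEK6 (ENSG00000119408, chromosome 9 from 127019885 to 127115586) measured 41.8, 41.9 and 46.3 FPKM in control and 49.9, 37.6 and 42.6 FPKM in Ras-induced cells. Its Ras-induced libraries lay on both sides of the controls and the group means were both 43.4 FPKM (log2 fold change -0.01, 95% interval -0.29 to 0.27, adjusted p = 0.972 from limma).

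**Figure D2:**
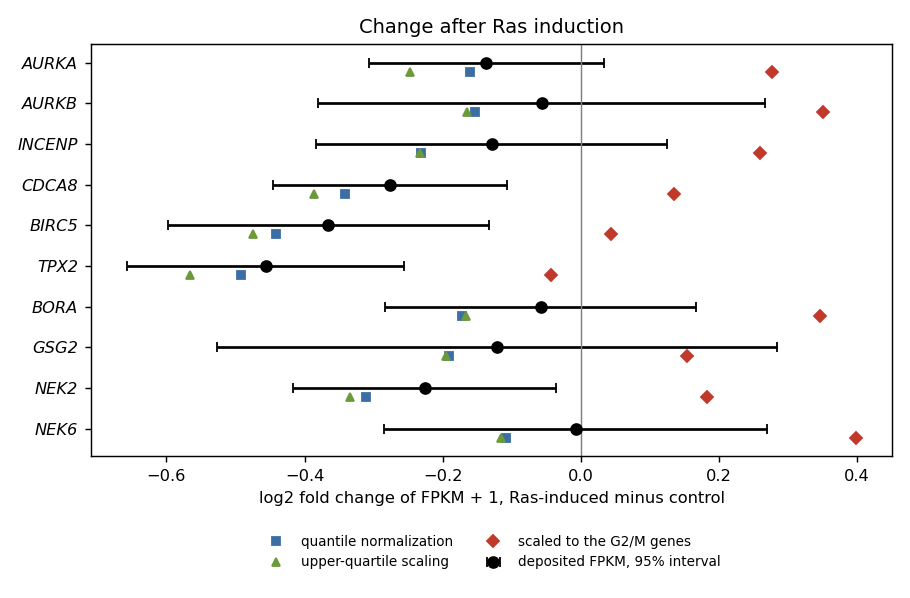
Log2 fold change of FPKM + 1 (Ras-induced minus control) for each gene, with the deposited FPKM and its 95% interval in black and 3 other scalings of the libraries beside it. Quantile and upper-quartile scaling move every gene to the left, and scaling to the G2/M genes moves every gene to the right and turns the sign of all but TPX2.

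Across scalings, 4 members were lower after quantile normalization, where 7.93% of all tested genes were called lower and 7.46% higher. After upper-quartile scaling 5 members were lower, where 7.87% of tested genes were called lower and 6.58% higher. No member was higher under either scaling.

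FPKM is scaled for length, so levels are set side by side as deposited. Other differences between genes in how fully their reads were counted were not tested. GSG2 and BORA also overlap genes on the other strand. In control mitotic cells AURKA and TPX2 overlapped at the top, followed by CDCA8 and BIRC5, which did not overlap, and then by NEK2 and AURKB, which did. NEK6 and BORA overlapped, and INCENP and GSG2 were lowest. In Ras-induced cells the order was the same except that NEK6, AURKB and NEK2 overlapped in turn, and AURKA no longer overlapped TPX2, with its lowest library at 245 FPKM against 202 FPKM in the highest TPX2 library.

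The level of each partner relative to its kinase was compared within libraries, which scaling of a whole library leaves nearly unchanged. The TPX2 to AURKA ratio of (FPKM + 1) was 0.918, 0.917 and 0.965 in control and 0.702, 0.806 and 0.738 in Ras-induced libraries. All Ras-induced ratios were the lower ones, with geometric means of 0.933 and 0.747 and a log2 difference of -0.32 (exact permutation test, two-sided, p = 0.1, the smallest that 3 against 3 allows, and 0.5 adjusted over the 5 ratios). For BORA to AURKA the geometric means were 0.150 and 0.158, and the groups overlapped (exact permutation p = 0.7).

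Relative to AURKB, geometric means in control and Ras-induced cells were 0.286 and 0.272 for INCENP (exact permutation p = 1), 1.85 and 1.59 for CDCA8 (exact permutation p = 0.3) and 1.59 and 1.29 for BIRC5 (exact permutation p = 0.3). Leaving out 1 library moved the log2 difference from -0.22 to between -0.34 and -0.126 for CDCA8, and from -0.31 to between -0.52 and -0.165 for BIRC5. These groups overlapped, and the control ratios of BIRC5 ranged from 1.19 to 1.94, lowest in the third control library, where AURKB was highest. The ratio of INCENP changed sign without the first control library.

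**Figure D3:**
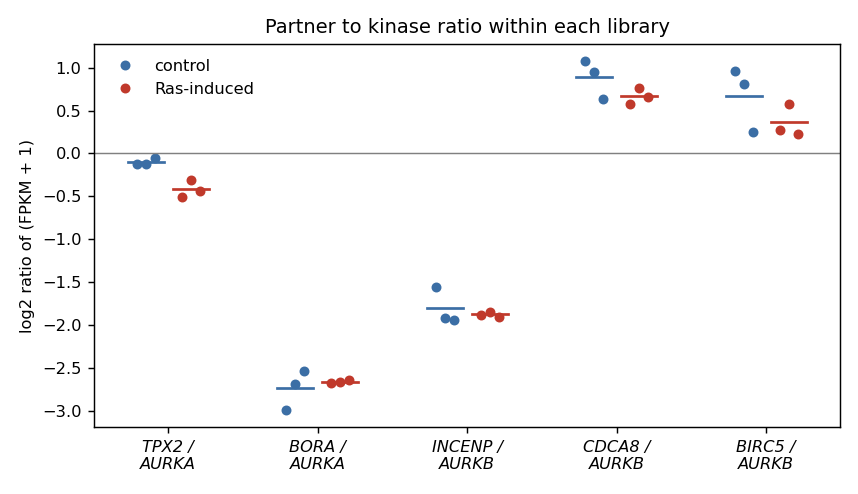
Log2 ratio of (FPKM + 1) of each partner to its kinase in each library, with 3 control points (blue) and 3 Ras-induced points (red) and a line at each group mean. Only the TPX2 to AURKA ratio separates the groups, with control points near -0.10 and Ras-induced points near -0.42.

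The members were set beside other genes of the same phase and beside genes of their pathway. In the deposited values 5.67% of all tested genes were called lower and 11.0% higher, the background for each list count. Of the 48 G2/M genes of the Seurat list that are not members, 25 were lower and none was higher, with a median log2 fold change of -0.34, and 10 or 11 were lower without the first control, the second control, the first Ras-induced or the third Ras-induced library. HMGB2 (-0.96), LBR (-0.77) and CDCA3 (-0.67) fell the most. Their summed level was 5659 to 5959 FPKM in control and 4528 to 4775 FPKM in Ras-induced libraries. Of 42 tested S-phase genes 24 were lower and 1 was higher (9 to 13 lower without any 1 of the same 4 libraries), with summed levels of 1397 to 1501 FPKM in control and 963.4 to 1151 FPKM in Ras-induced libraries. With each library scaled to the median level of the 48 G2/M genes, the log2 fold changes were -0.04 for TPX2, 0.04 for BIRC5 and 0.13 for CDCA8, none of them altered (adjusted p = 0.676, 0.754 and 0.191 from limma). On that scale AURKA (0.28, adjusted p = 0.0387), BORA (0.35, adjusted p = 0.02145) and NEK6 (0.40, adjusted p = 0.0455) were called higher, where 52.3% of all tested genes were called higher and 2.44% lower, and the median of all tested genes was 0.47. Of the S-phase genes 14 were lower and 4 higher on it.

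Among the partners of Aurora A, 5 of 11 tested genes were lower and none was higher (median log2 fold change -0.35). The count was 1 with no filter and without the first control, the second control, the second Ras-induced or the third Ras-induced library, and 2 without the first Ras-induced. On the G2/M scale none was lower, 3 were higher and PLK1 changed sign, and the G2/M list itself holds HMMR, CKAP5, TACC3 and KIF11 of these partners, KIF23, NDC80, KIF2C and CENPA of the substrates, and BUB1. HMMR, which binds TPX2 on the spindle, fell from 110.4 ± 21.8 to 71.8 ± 7.23 FPKM (SD, n = 3), or -0.60 on the log2 scale (adjusted p = 0.0398 from limma). CKAP5, the microtubule polymerase brought to the spindle through TACC3, had -0.52, the phosphatase CDC25B -0.48, and CEP192, the centrosome platform for Aurora A, -0.47. The calls of HMMR, CDC25B and CEP192 were each lost with no filter and in 5 of 6 fits with 1 library left out. That of HMMR was lost with no trend too, while that of CKAP5 was kept in all of these. PLK1, the kinase that Aurora A activates with BORA, fell from 214 ± 9.14 to 178 ± 5.69 FPKM (SD, n = 3), or -0.27 on the log2 scale (adjusted p = 0.0475 from limma). Its call was lost with a pseudocount of 0.1, with other filters, with no trend and without any 1 library other than the third control.

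Of 13 tested Aurora B substrates, 6 were lower and none was higher (median log2 fold change -0.38), and on the G2/M scale none was lower and 2 were higher. Without the first control, the second control or the third Ras-induced library 3 were lower. They include both parts of centralspindlin, the complex that builds the central spindle for cytokinesis, with log2 fold changes of -0.52 for KIF23 and -0.46 for RACGAP1. RACGAP1 fell from 210.4 ± 3.23 to 152 ± 5.0005 FPKM (SD, n = 3, adjusted p = 0.00768 from limma). The chromokinesin KIF4A had -0.43, the kinetochore scaffold CASC5 -0.46, the microtubule destabiliser STMN1 -0.61 and the myosin light chain MYL9 -0.73. The calls of CASC5 and MYL9 were lost with no filter, where 4 substrates were lower, and without any 1 library other than the third control. DES and CHMP4C were under the filter.

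Of 7 genes that recruit or relocate the passenger complex, 2 were lower and none was higher. KIF20A, the kinesin that carries the complex to the central spindle, fell from 182 ± 11.6 to 104 ± 4.26 FPKM (SD, n = 3), or -0.81 on the log2 scale (adjusted p = 0.00279 from limma). It was lower on the G2/M scale too, where 4 others of this list were higher. BUB1, whose histone H2A mark attracts shugoshins, had -0.30 and changed sign there, and its call was lost without any 1 library, with no filter and with no trend. The shugoshins SGOL1 and SGOL2, which dock the complex at the centromere, had log2 fold changes of 0.01 and -0.01 (adjusted p = 0.933 and 0.973 from limma).

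**Figure D4:**
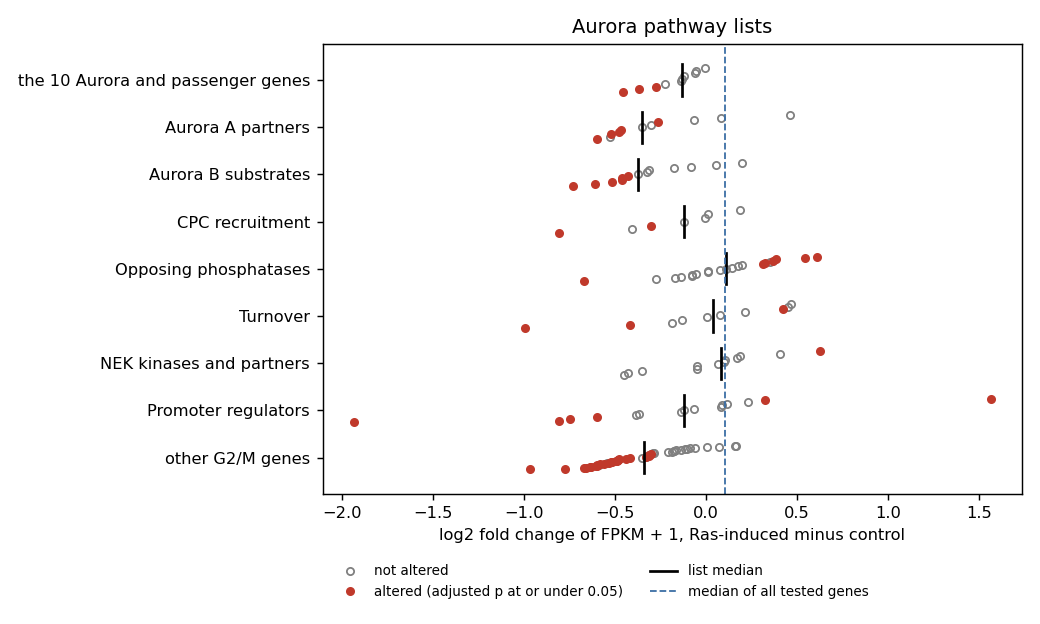
Log2 fold change of FPKM + 1 (Ras-induced minus control) of each tested gene, by list, with altered genes filled, a black line at the list median and a dashed line at the median of all tested genes (0.10). Altered genes of the partner, substrate, recruitment and G2/M lists all lie under 0. Above it lie 6 of the 7 altered phosphatase genes, and also 1543 of all 2336 altered genes. The median of the phosphatase list (0.11) is near the dashed line.

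Of 21 tested genes of the phosphatases that reverse Aurora phosphorylation and of their regulators, 6 were higher and 1 was lower, with a median log2 fold change of 0.11 against 0.10 over all tested genes. Without the first control, the first Ras-induced or the third Ras-induced library 1 was higher and none was lower, and without the second control library 3 were higher and none was lower. PPP2R5A and PPP2R5B, targeting subunits of PP2A-B56, had log2 fold changes of 0.61 (adjusted p = 0.00874 from limma) and 0.54 (adjusted p = 0.0167 from limma). PPP1R7, a regulator of PP1 at chromosomes, had 0.39, ENSA, the PP2A-B55 inhibitor, 0.37, and PPP2R2A, a B55 subunit, 0.33. MASTL, the kinase that activates ENSA, fell from 20.6 ± 2.92 to 12.5 ± 1.68 FPKM (SD, n = 3), or -0.67 on the log2 scale (adjusted p = 0.0233 from limma). With quantile normalization 4 genes were higher and with upper-quartile scaling 3, with the calls of PPP2R2A and PPP6R1 lost in both and that of ENSA in the second. On the G2/M scale 14 were higher and MASTL was no longer called. The catalytic subunits PPP1CA, PPP1CB, PPP1CC, PPP2CA, PPP2CB and PPP6C were not altered. In PPP1CA and PPP1CC each Ras-induced value lay above each control value, which was so for 27.1% of all tested genes. Their log2 fold changes were 0.35 and 0.14 (adjusted p = 0.0944 and 0.328 from limma).

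Among 12 tested genes of the other NEK kinases and their partners, NEK11 alone was altered, where 11.0% of all tested genes were called higher. With quantile normalization and with upper-quartile scaling 1 of the 12 was higher and 2 were lower. On the G2/M scale 6 were higher and none was lower. NEK11 rose from 1.77 ± 0.147 to 3.28 ± 0.303 FPKM (SD, n = 3). On the scale of log2(FPKM + 1), which understates the change at this level, this was 0.63 (adjusted p = 0.028 from limma). The call was lost with no filter and without any 1 library other than the third control. NEK7, the partner of NEK6, had a log2 fold change of -0.45 (adjusted p = 0.0763 from limma), and NEK9, which activates both, had 0.10 (adjusted p = 0.429 from limma). SAV1 had more than 6 values in its row and was not used, and NEK5 and NEK8 were under the filter.

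The genes whose pattern over the 6 libraries was most like that of TPX2, by the root mean square difference between centred log2(FPKM + 1) values, were SCLT1 (0.0285), STK33 (0.0318) and KIF4A (0.0405). STK33 lay between 1.56 and 2.77 FPKM, where adding 1 makes changes smaller, and was not altered (adjusted p = 0.0609 from limma). For CDCA8 the most alike were PLXNB1 (0.0338), RBBP7 (0.0344) and TXNDC5 (0.0365), none of them altered (adjusted p = 0.0890, 0.0694 and 0.0753 from limma). KIF4A, one of the Aurora B substrates, measured 77.2, 75.0 and 76.9 FPKM in control and 53.2, 59.1 and 57.4 FPKM in Ras-induced libraries, and like TPX2 was lowest in the first Ras-induced library and highest among them in the second.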

How the data were processed

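RNA of 6 mitotic cultures, 3 uninduced and 3 induced, was sequenced by the authors as paired-end poly(A) libraries. Per the labels, reads were trimmed with Trim Galore 0.3.0. The authors aligned them to hg19 with TopHat2 using Ensembl build 73 junctions, and deposited FPKM values from Cufflinks. Columns name the group and a number but not the sample, so each was taken as 1 replicate of the group named. A figure legend of the study says that the experiment was repeated independently. The 18 unnamed columns, which hold the further values of 120 genes, those genes and a repeated header line were left out. A deposited cuffdiff comparison holds group FPKM, fold changes and p-values and was not used.

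FPKM is no count, so log2(FPKM + 1) was fitted, for the 13993 genes averaging 1 FPKM or more, with limma 3.58.1 (lmFit, eBayes with trend, R 4.3.3), two-sided, with Benjamini-Hochberg adjustment over all of them. The fit was also run on simulated data, where it missed most of the smallest changes put in, which were larger than those of the members. Ratios were tested by exact permutation with scipy 1.17.1. G2/M and S-phase genes are the lists of Seurat 5.3.0. Positions are from GENCODE lifted to GRCh37, the build of hg19, and promoters from the RefSeq table (GRCh38.p14), matched exactly to GRCh37.

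Named in the text are all members, AURKC, each altered gene of the pathway lists (the 6 of largest change where there were more), the 3 largest falls and rises among altered G2/M genes, and the 3 genes most like each of the 2 members of smallest adjusted p. Genes named with no such change were chosen after their values were seen, for their role. The members and lists were chosen with earlier results of these data known. Alternatives were another pseudocount, other filters, 3 scalings, no trend, a replicate block and each library left out.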

Additional observations from a re-analysis of the deposited data

How the results depend on the processing

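Of 139 alternative values of the members' fold changes, 102 kept their direction and their side of the threshold, 21 lost a call with the sign kept, 3 gained one with the sign kept and 13 changed sign, of which 2 also lost and 3 also gained a call. Of 10 members, 3 were altered in the deposited values, 5 after upper-quartile scaling, 1 with no filter, 1 with no trend, and 0 to 2 when 1 library was left out (2 without control 3, 1 without Ras-induced 2 and 0 without each of the others). Over all genes, 1518 were altered with no filter, 7660 when scaled to the G2/M genes and 860 to 1872 with 1 library left out, against 2336. Among pathway genes, 15 were altered with no filter and 8 to 28 with 1 library left out, against 30 (10 higher and 20 lower). On the G2/M scale 45 of them were altered, 41 higher and 4 lower. Among G2/M genes, 25 were lower in the deposited values, and 10 to 23, all lower, were altered with 1 library left out. On their own scale 11 were altered, 8 higher and 3 lower, and BUB1, CCNB2, ECT2 and GTSE1 changed sign. Over all tested genes the median moved from 0.10 to 0.01 after quantile normalization and to 0.47 on the G2/M scale. On that scale, whose construction sets the G2/M median near 0, signs changed for AURKA (0.28), AURKB (0.35), INCENP (0.26), CDCA8 (0.13), BIRC5 (0.0444), BORA (0.35), GSG2 (0.15), NEK2 (0.18) and NEK6 (0.40). With 1 library left out, fold changes ranged from -0.165 to 0.0820 for AURKB, from -0.141 to 0.0058 for BORA and from -0.111 to 0.0888 for NEK6, and the log2 differences of the ratios from -0.0475 to 0.178 for BORA to AURKA and from -0.138 to 0.0515 for INCENP to AURKB. GSG2 was not fitted at a mean of at least 5 FPKM.

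Same-numbered libraries did not deviate together (correlations of -0.003, 0.043 and 0.048 across genes), so the numbers were not taken as pairs. With the replicate block 2310 genes and 2 members were altered, CDCA8 being lost (adjusted p = 0.0559 from limma), and among pathway genes the calls of PLK1, NEK11, ENSA, E2F4, RBL1, KLHL13 and FBXL7 were lost too. Not every library correlated best with its own number. Without read counts, precision at low FPKM, as for GSG2, could not be set from depth.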

Other observations

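Of 10 genes of the ubiquitin ligases that act on the Aurora kinases, BORA or NEK2, 1 was higher and 2 were lower in Ras-induced mitotic cells (median log2 fold change 0.04). Over all tested genes 11.0% were higher and 5.67% lower. On the G2/M scale 6 of the ligase genes were higher and 1 was lower (median 0.43). KLHL21 and KLHL13 are adaptors with which the CUL3 ligase acts on Aurora B. KLHL21 rose from 14.5 ± 0.542 to 19.8 ± 1.25 FPKM (SD, n = 3, log2 fold change 0.42, adjusted p = 0.0208 from limma), a call lost after upper-quartile scaling. KLHL13 fell from 1.93 ± 0.920 to 0.433 ± 0.0676 FPKM (SD, n = 3, log2 fold change -0.99, adjusted p = 0.0468 from limma). All Ras-induced values of KLHL13 were under 1 FPKM, so it passed the filter only through its control values, and its call is a description only. FBXL7, a ligase subunit for Aurora A, had -0.42 (adjusted p = 0.0466 from limma). With no filter KLHL13 and FBXL7 were not called, and with 1 library left out the call of FBXL7 was lost in all 6 fits and those of KLHL21 and KLHL13 in 4 each. Without the second control, the first Ras-induced or the third Ras-induced library none of the 3 was called. CDC20, an activator of the anaphase-promoting complex, had control and Ras-induced means of 367 and 324 FPKM and was not altered (log2 fold change -0.18, adjusted p = 0.171 from limma).

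Among 15 factors that act on G2/M promoters, 2 were higher and 4 lower, where 11.0% of all tested genes were higher and 5.67% lower. Without the second control or the third Ras-induced library 2 were lower and none was higher. On the G2/M scale 6 were higher and 2 lower. MYBL2, the B-MYB subunit of the activating complex, had the largest change, with a log2 fold change of -1.93, and the others that fell were E2F5 (-0.81), the chromatin subunit RBBP4 (-0.75) and RBL1 (-0.60). The call of RBL1 was lost with no filter and in 4 of 6 fits with 1 library left out, and that of RBBP4 without the second control or the third Ras-induced library, and both were lost on the G2/M scale. FOXM1, which works with B-MYB, had means of 154 and 117 FPKM with groups that did not overlap, and was not altered (log2 fold change -0.38, adjusted p = 0.0694 from limma). CDKN1A, the p21 gene, had a log2 fold change of 1.56 (adjusted p = 0.0496 from limma) and E2F4 of 0.33 (adjusted p = 0.0461 from limma), and both calls were lost with quantile normalization, upper-quartile scaling, no filter and no trend, and each was lost in 5 of 6 fits with 1 library left out.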
